A study of Mus musculus with 18 samples.

Results

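The S100 proteins are small calcium-binding proteins, and the liver RNA of 18 mice was examined here for 9 of their genes, S100a1, S100a4, S100a6, S100a8, S100a9, S100a10, S100a11, S100a13 and S100a16. The 9 genes were taken by symbol from the table of FPKM values (fragments scaled by gene length and by sequencing depth), which lists 17 protein-coding S100 genes among 54532 genes. The 18 mice were male C57BL/6J, bought at 6 weeks of age, in 3 groups of 6. The normal control group (NC) ate chow, the high-fat diet control group (HFD) ate a high-fat diet and received saline, and the SZ-A group ate the same diet and received SZ-A, an alkaloid extract of mulberry twig (Ramulus Mori) whose main components are the iminosugars 1-deoxynojirimycin, fagomine and DAB. The high-fat diet lasted 14 weeks before treatment began. Treatment then lasted 6 or 8 weeks, since the methods and the design text differ, and the dose and route of the sequenced mice were not given in the sources used here. The mice were fasted overnight before being killed, and nothing in the sources marks them as pooled, so each library was read as 1 mouse.

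The libraries held 17163191 to 20493907 fragments on genes, and the summed FPKM of 9 hepatocyte markers lay between 32620 and 65490 per mouse, so that the liver label stood. The mouse NC6 is titled as a chow mouse, but its diet entry names the high-fat diet. It was kept in NC, and the fitted values of the members against NC mice and the counts of called list genes are given with and without it. SZ-A5 stood apart among the SZ-A mice for the S100 genes, with the highest value of its group for 6 of the 9 genes (S100a4, S100a6, S100a8, S100a9, S100a10 and S100a11) and the lowest for the other 3. HFD5 had the lowest HFD value for 4 of the 9 (S100a6, S100a8, S100a10 and S100a11). Calls that change without these mice are also given without them.

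S100 proteins bind calcium through paired EF-hand motifs, mostly act as dimers, and change their binding partners when calcium rises. S100A8 and S100A9 form the heterodimer calprotectin, which neutrophils and monocytes carry in their cytosol and release as an alarm signal that binds the receptors TLR4 and RAGE. S100A10 and S100A11 bind annexins at membranes, S100A6 and S100A4 are found in fibroblasts and other motile cells, S100A1 regulates calcium handling in muscle, S100A13 takes part in the release of FGF1, and S100A16 has been linked to adipocyte differentiation.

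All 9 genes lie on chromosome 3 (GRCm38), and 7 of them, from S100a1 to S100a9, fall within 185 kilobases. S100a8 (ENSMUSG00000056054, chr3:90668978-90670035, plus strand) and S100a9 (ENSMUSG00000056071, chr3:90692632-90695721, minus strand) are 23 kilobases apart. S100a11 (ENSMUSG00000027907, chr3:93520488-93526287, plus strand) and S100a10 (ENSMUSG00000041959, chr3:93555080-93564643, plus strand) form a separate pair that starts 2825 kilobases beyond S100a9. S100a1 (ENSMUSG00000044080, chr3:90511034-90514392, minus strand) and S100a13 (ENSMUSG00000042312, chr3:90514435-90524581, plus strand) lie head to head with 42 bases between them. S100a16 (ENSMUSG00000074457, chr3:90537254-90543151), S100a4 (ENSMUSG00000001020, chr3:90603771-90606045) and S100a6 (ENSMUSG00000001025, chr3:90612882-90624181) lie between S100a13 and S100a8 on the plus strand. S100a4 was the 1 member whose gene model overlapped another gene of the table, Gm42674, which was at 0 FPKM on average. The longest annotated proteins of the members that rose on the high-fat diet were 89 residues for S100a8, 113 for S100a9 and 98 for S100a11, each from a transcript of 3 exons.

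The 250 bases before the RefSeq start site (GRCm38.p6) are shown for S100a8, S100a9 and S100a11, the genes that rose on the high-fat diet. Also shown are the 42 bases between the gene models of S100a1 and S100a13, whose values moved together from mouse to mouse. The RefSeq start sites of S100a1 and S100a13 have 104 bases between them, since that of S100a1 lies 62 bases inside its gene model. Capitals mark matches to 4 short motifs searched on both strands, the TATA box (TATAAA), the AP-1 motif (TGANTCA), the C/EBP motif (TTGCNNAA) and the GC box (GGGCGG), none of which overlapped another here. Each upstream sequence is written 5′ to 3′ on the strand of its gene, and the sequence between S100a1 and S100a13 on the plus strand.
S100a8 (chr3:90668821-90669070, plus strand): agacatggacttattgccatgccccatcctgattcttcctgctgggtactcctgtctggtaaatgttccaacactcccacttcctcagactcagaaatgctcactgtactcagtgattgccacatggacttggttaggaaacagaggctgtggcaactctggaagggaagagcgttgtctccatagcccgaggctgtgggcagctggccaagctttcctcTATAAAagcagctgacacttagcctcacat
S100a9 (chr3:90695722-90695971, minus strand): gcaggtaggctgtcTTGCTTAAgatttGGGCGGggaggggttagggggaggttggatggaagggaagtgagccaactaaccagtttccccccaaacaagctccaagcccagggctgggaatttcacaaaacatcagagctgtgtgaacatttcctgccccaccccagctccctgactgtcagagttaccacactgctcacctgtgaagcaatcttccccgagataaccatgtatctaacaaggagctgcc
S100a11 (chr3:93520246-93520495, plus strand): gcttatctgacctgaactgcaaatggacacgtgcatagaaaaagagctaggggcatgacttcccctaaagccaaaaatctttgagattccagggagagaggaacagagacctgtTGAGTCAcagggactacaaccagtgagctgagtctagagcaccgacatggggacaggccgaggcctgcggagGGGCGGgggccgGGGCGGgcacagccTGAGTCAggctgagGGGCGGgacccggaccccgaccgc
S100a1 to S100a13 (chr3:90514393-90514434, plus strand): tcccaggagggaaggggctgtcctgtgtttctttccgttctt
The S100a8 sequence held a TATA box 30 bases before the start site, a motif found in 12.4% of the 32851 RefSeq upstream sequences of this length. Its gene model in the table begins 93 bases further upstream, so part of the sequence lies inside that model. The S100a11 sequence held 2 AP-1 motifs, 136 and 38 bases upstream, and 3 GC boxes, 64, 52 and 24 bases upstream. At least 1 AP-1 motif was found in 6.75% and at least 1 GC box in 32.7% of all upstream sequences. The S100a9 sequence held 1 C/EBP motif 236 bases upstream, as 9.56% of all sequences did, and 1 GC box 223 bases upstream. The bases between S100a1 and S100a13 held none of the 4 motifs, and the same letters were absent from the 250 bases upstream of either gene. Of the other members with an entry, S100a4 had a TATA box 31 bases upstream, S100a6 had no match, and the second of the 2 entries of S100a16 had an AP-1 motif and a GC box. A match is a run of letters and not a binding site.

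In every group S100a1 and S100a10 were by far the most abundant members per gene length, and S100a4 the least. The mean levels of NC mice were 112.5 ± 13.95 FPKM for S100a1 and 107 ± 22.5 for S100a10 (SD, n = 6). S100a13 followed at 28.8 ± 7.54 and S100a16 at 13.8 ± 2.27. S100a11 stood at 6.66 ± 1.30 FPKM, while S100a9, S100a6 and S100a8 stood at 1.42 ± 1.14, 1.01 ± 0.368 and 0.812 ± 0.460. S100a1 and S100a10, next to each other in this order of levels, changed places from mouse to mouse. S100a1 was the highest member in 11 mice and S100a10 in 7. The order of S100a9, S100a6 and S100a8 likewise differed among NC mice, and their ranges overlapped. S100a1 and S100a10 together held most of the summed FPKM of the 9 members, 41.5% ± 2.25 and 39.2% ± 4.0 of it in NC mice.

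**Figure D1:**
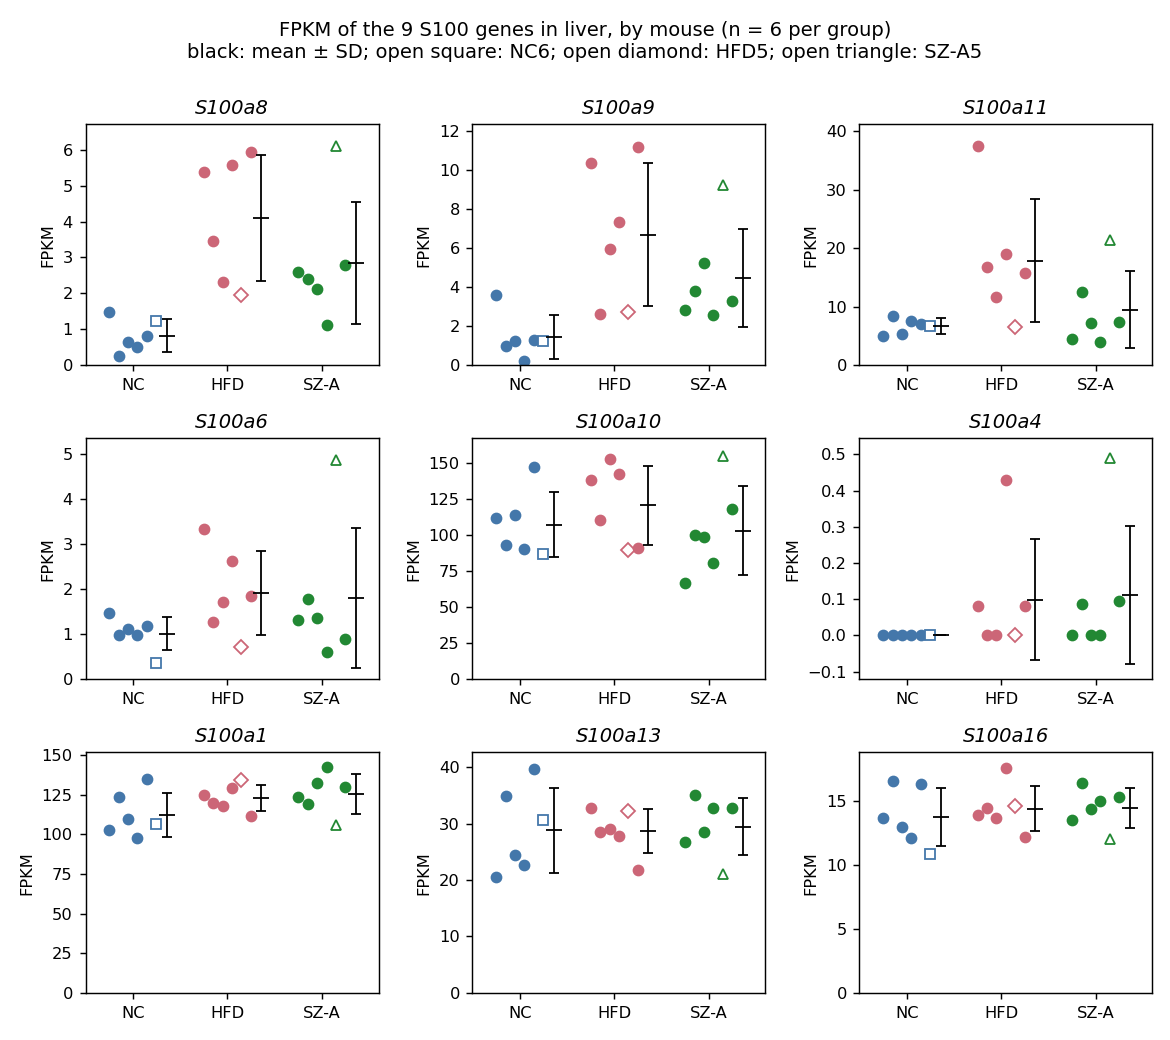
FPKM of each of the 9 S100 genes (y axis, linear) in the NC, HFD and SZ-A mice (x axis), 1 point per mouse, with the group mean and SD (n = 6) in black. The open square is NC6, the open diamond HFD5 and the open triangle SZ-A5. S100a8 values of HFD mice lie at 1.95 FPKM or above and those of NC mice at 1.48 or below, and S100a1, S100a13 and S100a16 overlap among all 3 groups.

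The comparison of HFD with NC mice asks what the high-fat diet did to these genes. S100a8, S100a9 and S100a11 rose, with fold changes of 4.76, 4.89 and 2.36, and none of the members fell. The other 5 members in the fit did not pass the test. Calls rest on limma with Benjamini-Hochberg adjustment over the 10216 genes with a mean of at least 1 FPKM, and need both an adjusted p below 0.05 and a fold of more than 1.2 in either direction. Of all genes tested, 10.7% were called higher, against 3 of the 8 members tested, and S100a4 was below the filter. The median log2 fold change was 0.49 over the 8 members (0.35 without NC6) and -0.03 over all genes. S100a8, whose NC mean was below 1 FPKM, passed the filter on low values through its HFD and SZ-A levels. Over all genes 1092 were higher and 970 lower. After each mouse was rescaled to a common FPKM sum these were 2100 and 334, the median of all genes moved to 0.15, and 4 members were called higher, S100a1 being the added one.

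S100a8, the calcium-binding alarm protein of neutrophils and monocytes, was at 0.248, 0.714 and 1.48 FPKM in NC mice (lowest, median and highest) and at 1.95, 4.42 and 5.95 in HFD mice. Every HFD mouse was above every NC mouse. The log2 fold change was 2.25 ± 0.38 (SE), with an adjusted p of 0.0013 by limma, and it was 2.39 with an adjusted p of 0.00152 without NC6. These levels rest on few fragments, 3 to 18 per NC mouse and 25 to 87 per HFD mouse.

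S100a9, its partner in calprotectin, was at 0.189, 1.24 and 3.59 FPKM in NC mice and at 2.59, 6.62 and 11.2 in HFD mice. The groups touched only through NC1, whose 3.59 FPKM exceeded HFD2 and HFD5, so that 4 of the 6 HFD mice were above all NC mice. The log2 fold change was 2.29 ± 0.53 (SE) with an adjusted p of 0.0087 by limma, and it was 2.32 with an adjusted p of 0.0147 without NC6. The ratio of S100a8 to S100a9 FPKM had a median of 0.558 in NC mice, 0.627 in HFD mice and 0.649 in SZ-A mice, with a range of 0.251 to 2.63 over all mice. Both ends of that range rest on few fragments. They were NC2 (3 fragments of S100a8 and 9 of S100a9) and NC4 (7 and 2).

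Markers of several cell types moved in the same direction as this pair. The summed FPKM of the 13 neutrophil markers ranged from 1.74 to 8.83 among NC mice and from 17.5 to 172.3 among HFD mice, and it lay between 4.30 and 110.8 after SZ-A. Most of the HFD sums was Lcn2, a gene that hepatocytes also express under inflammation. Lcn2 rose from 2.24 ± 1.87 to 54.6 ± 57.7 FPKM (adjusted p = 0.000254). Without Lcn2 the sum ranged from 1.06 to 2.91 in NC and from 1.90 to 5.75 in HFD mice, a choice made after its values were seen. Only 2 of the 13 passed the filter, the other being Retnlg, which passed it through its HFD level (on average 1.66 FPKM, against 0.593 in NC mice and 0.989 in SZ-A mice) and was called once NC6 or HFD5 was left out or the mice were rescaled to a common sum. The defining neutrophil genes Ly6g and Mpo were at 0 in all NC mice, and Ly6g reached at most 4 fragments and Mpo at most 1 in an HFD mouse. Among those below the filter, the receptor Csf3r was at 0.347 to 0.882 FPKM in NC mice and at 0.927 to 1.78 in HFD mice without overlap, and Cxcr2 averaged 0.0645 in NC and 0.177 in HFD mice. Ly6g, Mpo, Csf3r and Cxcr2 were chosen after their values were seen. Of the other markers below the filter, Ltf was lower on average in HFD than in NC mice (0.0135 against 0.0186 FPKM). Camp was nearly level (0.0383 against 0.0371). Elane, Ngp, Mmp8, Mmp9 and Il1r2 had higher HFD means, with ranges that overlapped between the groups. Of the 6 monocyte and macrophage markers tested of 12, 4 rose, against 10.7% of all genes. They were Cd68, Lyz2, Adgre1 and Fcgr1, with and without NC6, and all but Adgre1 also without HFD5. Fcgr1, with an NC mean of 0.921 FPKM, passed the filter through its HFD and SZ-A levels (on average 2.28 and 1.63 FPKM). The summed list ranged from 59.6 to 114.4 FPKM in NC and from 141.8 to 194.1 in HFD mice. Their part in the S100 results was not tested. In whole liver RNA, more cells of a type and more RNA per cell cannot be told apart.

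S100a11, which binds annexins and takes part in membrane repair and growth control, was at 5.01, 6.82 and 8.42 FPKM in NC mice and at 6.55, 16.2 and 37.5 in HFD mice. HFD5 was the lowest HFD mouse and lay within the NC range, and the other 5 were above every NC mouse. The log2 fold change was 1.24 ± 0.31 (SE) with an adjusted p of 0.0137 by limma. It was 1.24 with an adjusted p of 0.0229 without NC6 and 0.99 with an adjusted p of 0.0163 without HFD1, the highest mouse. Without the filter on low values the adjusted p was 0.0512, and the call was lost.

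S100a6, also named calcyclin and a gene of fibroblasts and epithelia, was at 0.349, 1.045 and 1.46 FPKM in NC mice and at 0.711, 1.78 and 3.32 in HFD mice. Of the 6 HFD mice, 4 were above all NC mice. The log2 fold change of 0.81 ± 0.35 (SE) did not pass the test (adjusted p = 0.118 by limma). It was 0.57 with an adjusted p of 0.211 without NC6, the mouse with the lowest value, and 1.047 with an adjusted p of 0.0340 without HFD5. With a weight given to each mouse in the limma fit it was 0.95 with an adjusted p of 0.0404.

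The abundant members showed no difference that passed the test. S100a10, the annexin A2 partner, was at 86.6, 102.4 and 146.8 FPKM in NC mice and at 89.5, 124 and 152.4 in HFD mice, and the groups overlapped through most of their range. Its log2 fold change was 0.16 with a 95% interval from -0.19 to 0.52 (adjusted p = 0.521 by limma). For S100a1 the interval ran from -0.06 to 0.32, for S100a16 from -0.17 to 0.32 and for S100a13 from -0.32 to 0.37. Without NC6 the log2 fold changes were 0.11 for S100a10, 0.12 for S100a1, 0.01 for S100a16 and 0.05 for S100a13. S100a1 alone of these was called after the rescaling to a common sum (0.33, adjusted p = 0.00882).

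S100a4, known as fibroblast-specific protein, was at 0 in all 6 NC mice, in 3 HFD mice and in 3 SZ-A mice, and reached at most 5 fragments in a mouse. Its highest values were 0.431 FPKM in HFD4 and 0.490 in SZ-A5. The difference in mean log2(FPKM + 0.1) was 0.69 between HFD and NC mice (exact two-sided permutation test, p = 0.182, and p = 0.242 without NC6). Between SZ-A and NC mice it was 0.74 (exact p = 0.182, and p = 0.242 without NC6), and between SZ-A and HFD mice 0.05 (exact p = 0.784). The smallest p such a test allows with 6 against 6 mice is 0.00216. The gene was not detectable at this depth in NC mice, and an absence is not shown.

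**Figure D2:**
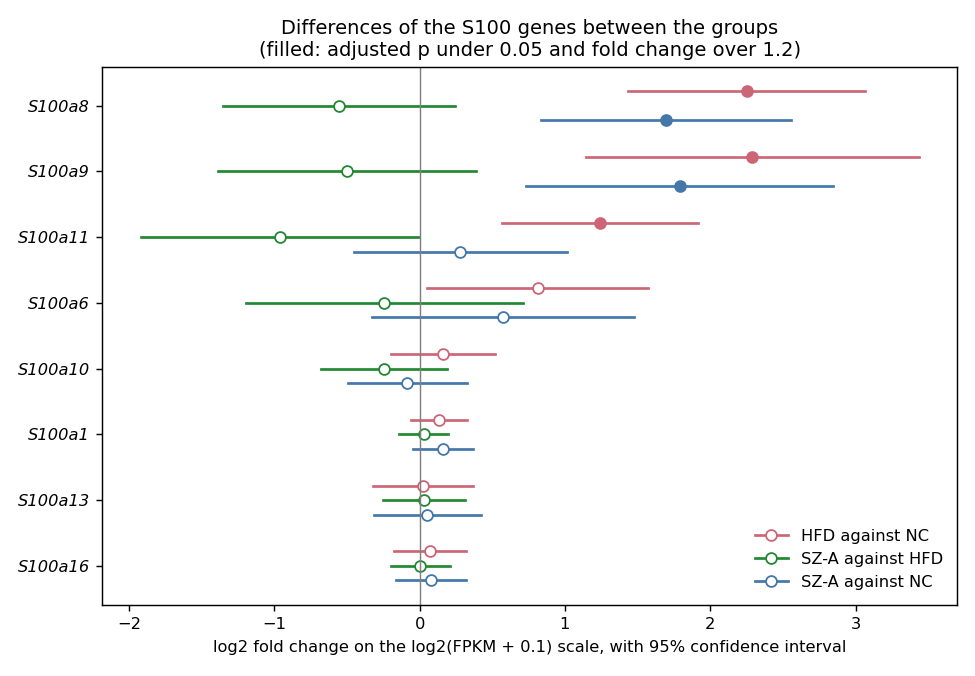
Log2 fold change (x axis, on the log2(FPKM + 0.1) scale) of the 8 S100 genes in the fit, with 95% confidence intervals, for HFD against NC (red), SZ-A against HFD (green) and SZ-A against NC (blue), n = 6 mice per group. Filled points passed the test. Of the green points none is filled, and the filled ones are S100a8, S100a9 and S100a11 in red and S100a8 and S100a9 in blue.

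The comparison of SZ-A with HFD mice asks what the treatment did on the same diet. It uses the same HFD mice as the comparison above. None of the 8 members tested was called by limma, where 0.147% of all genes tested (15 of 10216) were called in either direction, and none was called by voom on the fragments worked back from FPKM. At an unadjusted p under 0.05 there was 1 member, S100a11, against 14.8% of all genes. The mean levels of S100a8, S100a9, S100a11, S100a6 and S100a10 were lower in SZ-A than in HFD mice. The 95% interval of the log2 fold change ended just below 0 for S100a11 and included 0 for the other 4. Over all genes 8 were higher and 7 lower, and after the rescaling 10 and 206, with the median of all genes at -0.15 and still no member called.

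S100a11 was at 4.003, 7.26 and 21.4 FPKM in SZ-A mice, against 6.55, 16.2 and 37.5 in HFD mice. Of the 6 SZ-A mice, 5 were below the HFD mean and 2 below every HFD mouse, while SZ-A5 at 21.4 lay above 5 of the 6 HFD mice. The log2 fold change was -0.96, with a 95% interval from -1.91 to -0.0048 and an adjusted p of 0.336 by limma. Without SZ-A5 it was -1.24 with an adjusted p of 0.159.

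S100a8 was at 1.11, 2.49 and 6.1 FPKM in SZ-A mice, and its values spread over the whole HFD range. SZ-A5 held the highest S100a8 value of all 18 mice, and the other 5 SZ-A mice lay at 2.78 FPKM or below. The log2 fold change was -0.56 with a 95% interval from -1.35 to 0.24 (adjusted p = 0.513 by limma), and -0.81 (adjusted p = 0.249) without SZ-A5. S100a9 was at 2.54, 3.52 and 9.21 FPKM in SZ-A mice, with 5 of 6 below the HFD mean. Its log2 fold change was -0.50 with an interval from -1.39 to 0.39 (adjusted p = 0.612), and -0.73 (adjusted p = 0.388) without SZ-A5.

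S100a6 was at 0.607, 1.34 and 4.85 FPKM in SZ-A mice, and its log2 fold change was -0.24 with an interval from -1.19 to 0.71. Single mice moved this value, which became -0.58 when SZ-A5 was left out, -0.47 when HFD5 was, and -0.02 when SZ-A4 was. S100a10 was at 66.6, 99.0 and 154.4 FPKM, with a log2 fold change of -0.25 and an interval from -0.68 to 0.19, and the value was -0.37 without SZ-A5. SZ-A5 was the highest mouse of its group for both. The narrowest intervals belonged to S100a1 (-0.14 to 0.20), S100a16 (-0.20 to 0.21) and S100a13 (-0.25 to 0.31), whose point values were within 0.04 of 0.

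Against NC mice, S100a8 and S100a9 were still higher in SZ-A mice, and S100a11 was not called. The same SZ-A and NC mice enter here as above, so the comparisons are not independent. Of all genes tested, 5.31% were called higher, and of the 8 members tested 2. For S100a8 the log2 fold change was 1.69 ± 0.40 (SE) with an adjusted p of 0.0182 by limma, and 5 of the 6 SZ-A mice were above all NC mice. It was 1.83 (adjusted p = 0.018) without NC6 and 1.45 (adjusted p = 0.0243) without SZ-A5.

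For S100a9 the log2 fold change was 1.79 ± 0.49 (SE) with an adjusted p of 0.0362 by limma, and all 6 SZ-A mice were above the NC mean, 3 of them above every NC mouse. The call lay close to the threshold of the adjusted p. It was lost without NC2, NC3, NC6, SZ-A2, SZ-A3, SZ-A5 or SZ-A6. The log2 fold change ranged from 1.38 to 2.12 with a mouse left out. It was 1.82 (adjusted p = 0.0522 by limma) without NC6 and 1.55 (adjusted p = 0.0569) without SZ-A5. Without the filter on low values neither S100a8 (adjusted p = 0.0745) nor S100a9 (adjusted p = 0.126) was called.

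S100a11 differed from NC by 0.28 on the log2 scale (95% interval -0.45 to 1.01, adjusted p = 0.659 by limma). The value was 0.28 without NC6 and -0.0017 without SZ-A5. S100a6 differed by 0.57 (interval -0.33 to 1.47), which became 0.33 without NC6 and 0.23 without SZ-A5. The differences of S100a1, S100a10, S100a13 and S100a16 were 0.16, -0.08, 0.05 and 0.08, and without NC6 they were 0.15, -0.14, 0.08 and 0.02. None of these 4 passed the test.

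The annexins are calcium-dependent membrane-binding proteins and the classical partners of S100A10, S100A11, S100A6 and S100A4. In HFD against NC mice 5 of the 8 annexin genes tested rose and none fell (of 12 listed), against 10.7% of all genes called higher. Their median log2 fold change was 0.52. The count was also 5 without NC6 and 6 without HFD5, Anxa1 being added. Anxa2, which forms a heterotetramer with S100A10, rose from 2.57 ± 0.39 to 12.2 ± 4.45 FPKM (log2 fold change 2.12 ± 0.23 SE, adjusted p = 8.95e-05 by limma). All HFD mice lay at 6.5 FPKM or above and all NC mice at 2.96 or below, although S100a10 itself did not pass the test. Anxa4 rose by 0.51 and Anxa5 by 0.60 on the log2 scale, and Anxa11 and Anxa3 were the other annexins called. In SZ-A against HFD mice none of the 8 annexins was called, and 3 of the 8 had an unadjusted p under 0.05, against 14.8% of all genes. Anxa2 was at 4.999 ± 2.51 FPKM in SZ-A mice (log2 fold change -1.31 ± 0.33 SE, adjusted p = 0.105 by limma). Rescaling each mouse to a common sum made Anxa2 the 1 annexin called lower there. In SZ-A against NC mice Anxa4 and Anxa11 were called higher, Anxa4 alone without NC6, and neither after the rescaling.

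The NADPH oxidase of phagocytes receives arachidonic acid from calprotectin, and its subunits rose with S100a8 and S100a9 on the high-fat diet. All 5 subunit genes tested of 6 were called higher in HFD against NC mice, with and without NC6 (Cyba, Cybb, Rac2, Ncf1 and Ncf4). The share called higher over all genes was 10.7%. Cyba rose from 8.81 ± 1.47 to 14.8 ± 3.19 FPKM, Rac2 by 0.83 ± 0.19 and Cybb by 0.88 ± 0.23 on the log2 scale (SE). No subunit gene was called in the other comparisons. In SZ-A against HFD mice 4 of the 5 had an unadjusted p under 0.05, against 14.8% of all genes, and Cybb differed by -0.55 (adjusted p = 0.088 by limma). After the rescaling Cybb and Ncf1 were called lower there.

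Of the 12 receptors and signalling genes downstream of S100A8 and S100A9, 9 were tested. In HFD against NC mice 3 of the 9 rose, against 10.7% of all genes, and none fell, with and without NC6. They were Cd36, a fatty acid transporter that binds the arachidonic acid complex of calprotectin, Bsg, a receptor for S100A9, and Irak4, a kinase of TLR4 signalling. Cd36 rose from 24.6 ± 9.95 to 96.5 ± 16.4 FPKM (adjusted p = 0.000164) and was the 1 gene of the list to fall in SZ-A against HFD mice, to 43.4 ± 17.7 FPKM (log2 fold change -1.21 ± 0.20 SE, adjusted p = 0.0382 by limma). Bsg rose by 0.36 and Irak4 by 0.33 on the log2 scale. No gene of the list was called in SZ-A against NC mice, with or without NC6, but Bsg was called higher there after the rescaling, which also added Ly96 and Nfkb1 in HFD against NC mice.

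Other S100 partners showed no common direction. In HFD against NC mice 2 of 21 tested of 26 rose (Nucb1 and Myh9), against 10.7% of all genes. Another 2 fell (Myh10, a nonmuscle myosin bound by S100A4, and S100pbp, an S100P-binding protein), and Plau joined the higher ones without NC6. None was called in SZ-A against HFD mice. In SZ-A against NC mice Plg, Fgf1 and Nucb1 were higher and Myh10 and S100pbp lower, and Fgf1 was not called without NC6. After the rescaling 7 of the 21 rose and none fell in HFD against NC mice. A further list held 21 other calcium-binding proteins, most of them EF-hand proteins but Rgn, Calr and Canx not. All were tested, and 6 rose and 1 fell in HFD against NC mice, with and without NC6. They were led by Rcn3 (0.84), Capns1 (0.36) and Calm2 (-0.52). Without HFD5 there were 7 higher and 2 lower. None was called in SZ-A against HFD mice. Rgn, Efhd2 and Rcn3 were higher in SZ-A against NC mice, with and without NC6.

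The members also differed in how they varied among mice of the same group. After removal of group means, 28 pairs of the 8 members were correlated over the 18 mice, with p-values from 100000 within-group shuffles adjusted over the 28 pairs. Both Pearson's r and Spearman's rho passed an adjusted p of 0.05 for 3 pairs. The head-to-head neighbours S100a1 and S100a13 had r = 0.802 (permutation, adjusted p = 0.0182) and rho = 0.688 (adjusted p = 0.0452), with r = 0.769 without the 2 mice farthest from the median, NC1 and NC4. S100a1 and S100a16 had r = 0.717 (permutation, adjusted p = 0.0262) and rho = 0.717 (adjusted p = 0.0335), with r = 0.725 without NC1 and NC4. S100a8 and S100a9 had r = 0.672 (permutation, adjusted p = 0.0389) and rho = 0.699 (adjusted p = 0.0335), with r = 0.766 without NC2 and NC4. All mice share the scaling by library, which bears on every pair.

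S100a6 and S100a11 had r = 0.739 (permutation, adjusted p = 0.0262), but rho = 0.589 did not pass (adjusted p = 0.0718), with r = 0.733 without NC6 and SZ-A5. S100a6 and S100a9 showed the reverse, with rho = 0.69 (permutation, adjusted p = 0.0335) and r = 0.577 (adjusted p = 0.0582), which was 0.598 without NC6 and SZ-A5. All 10 pairs among S100a6, S100a8, S100a9, S100a10 and S100a11 were positive (r = 0.38 to 0.74), as were the 3 pairs among S100a1, S100a13 and S100a16 (0.62 to 0.80). Of the 15 pairs between these sets, 12 were negative. The division into sets was made after the values were seen. Without SZ-A5 the pairs within each set stayed positive, and 8 of the 15 between them were negative.

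**Figure D3:**
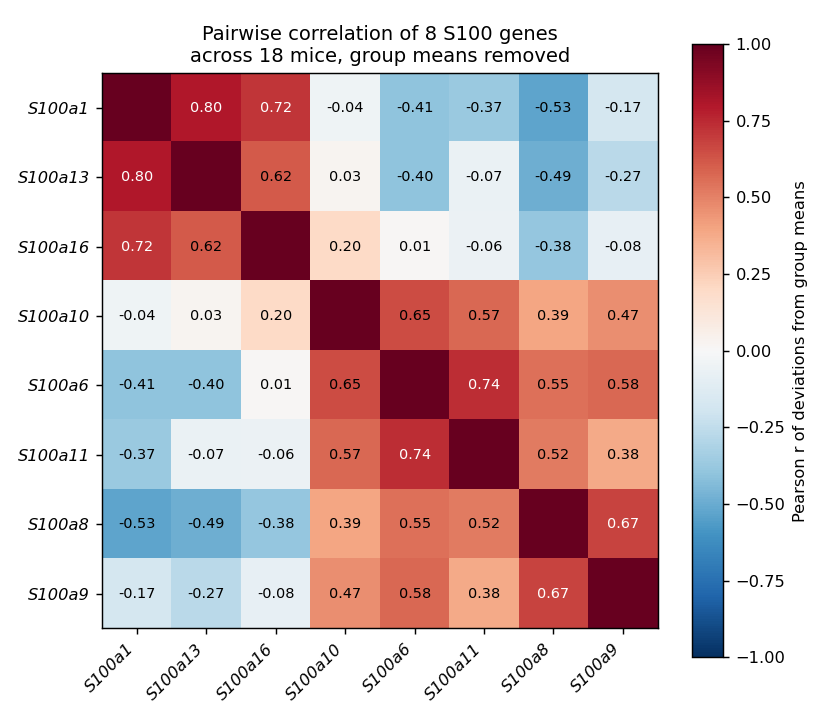
Pearson r between pairs of 8 S100 genes over 18 mice (colour and number), computed on log2(FPKM + 0.1) after removal of group means. Genes on both axes are ordered by set, and the block of S100a1, S100a13 and S100a16 and the block of the other 5 hold only positive values, from 0.62 to 0.80 and from 0.38 to 0.74.

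The genes whose deviations from group means were most like those of each member were found among all genes tested, as a description over 18 mice. S100a11 was closest to Anxa5 (r = 0.924), an annexin, followed by Cbr3 (0.917), a carbonyl reductase, and Dnase2a (0.909), a lysosomal nuclease. Anxa5 was at 87.4 FPKM in HFD1, the mouse with the highest S100a11, at 61.7 in SZ-A5 and at 40.6 in HFD5. S100a8 was closest to Ier3 (0.833), an immediate early gene, Lbh (0.808) and Renbp (0.788), and S100a9 to 2610001J05Rik (0.850), Morn2 (0.779) and Zscan21 (0.760). S100a6 was closest to Tmem43 (0.866), Dpt (0.852), which encodes the matrix protein dermatopontin, and Serinc2 (0.843).

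The 4 most abundant members had other companions. S100a1 was closest to Pcbd1 (0.877), which recycles the cofactor of phenylalanine hydroxylase, Ndufb10 (0.870), a subunit of respiratory complex I, and Mpnd (0.866). S100a16 was closest to Sdhc (0.903), a subunit of succinate dehydrogenase, Slc25a5 (0.853), a mitochondrial ADP/ATP carrier, and Ndufs1 (0.833), another complex I subunit. S100a13 was closest to Dgcr6 (0.909), Mzt2 (0.881) and Abhd17a (0.869), and S100a10 to Xrcc4 (0.889), a DNA repair protein, Wdr1 (0.869), an actin disassembly factor, and Arsg (0.867).

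**Figure D4:**
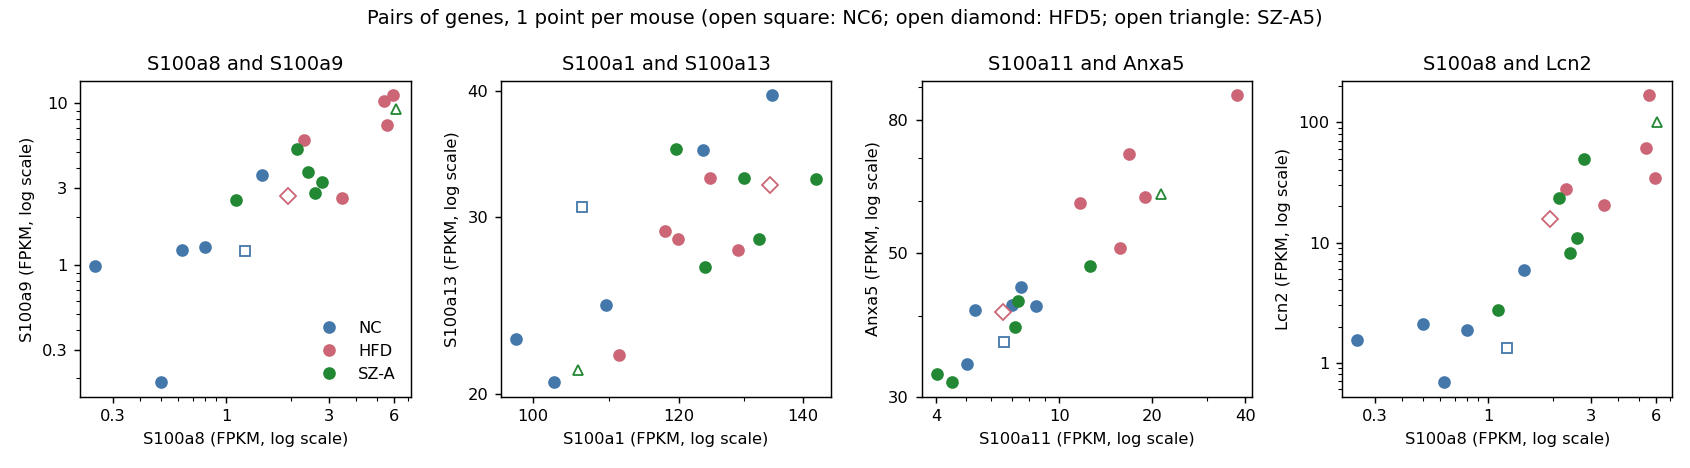
FPKM of 4 pairs of genes on logarithmic axes, 1 point per mouse, in NC (blue), HFD (red) and SZ-A (green), with NC6, HFD5 and SZ-A5 as open symbols. S100a8 and S100a9, S100a11 and Anxa5, and S100a8 and Lcn2 each rise together over the mice, with HFD mice mostly at the upper right and NC mice at the lower left, whereas the groups are mixed for S100a1 and S100a13.

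The other cell type lists moved as follows in HFD against NC mice, where 10.7% of all genes tested were called higher. Of 12 stellate cell and fibroblast genes 9 rose and none fell, with and without NC6 (10 without HFD5), and their sum ranged from 52.9 to 77.7 FPKM in NC and from 63.0 to 132.8 in HFD mice. Among those that rose, Col1a1 had an NC mean of 0.796 FPKM and passed the filter through its HFD and SZ-A levels (5.53 and 1.52 FPKM). Of 2 adipocyte genes tested of 6 both rose (Cfd and Fabp4), and of the 6 Kupffer cell genes Cd5l alone, which was not called without HFD5. The adipocyte sum ranged from 1.49 to 8.68 FPKM in NC and from 24.2 to 137.6 in HFD mice. Of 7 endothelial genes tested of 8, Eng and Lyve1 rose, Eng alone without NC6. Of the 6 mesothelial genes only Krt8, which hepatocytes also express, passed the filter, and it rose. No list gene was called among 3 cholangiocyte genes tested of 8, 1 dendritic cell gene of 6 or 5 red blood cell genes of 7 (Alas2 was higher without NC6), and no T and NK cell gene of 7 or B cell gene of 4 passed the filter. Of 9 hepatocyte genes 3 fell (Apoa1, Serpina1a and Pck1), and Ahsg joined them without NC6, as Ahsg and Alb did without HFD5. In SZ-A against HFD mice Cd68 was the 1 gene of these lists to be called, lower in SZ-A mice, but without SZ-A5 it was Lyz2 in its place. Without HFD5, Col3a1, Col1a1 and Col1a2 were also lower there and Apoa1 higher. After the rescaling Lyz2, Cd68, Adgre1, Fcgr1, Col3a1, Col1a1, Eng and Cfd were lower there and Apoa1 higher. In SZ-A against NC mice Lcn2, Cd68, Fcgr1, Rgs5, Lum, Col3a1 and Krt8 were higher and Pck1 and Sox9 lower. Of these Rgs5 was not called without NC6, where Cd5l and Clec4f were added, and without SZ-A5 Fcgr1, Rgs5 and Col3a1 were not called, Cyp2e1 was added as higher and Cd14 as lower. After the rescaling Cd68, Fcgr1, Rgs5 and Col3a1 were not called in SZ-A against NC mice. Their part in the S100 results was not tested.

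The 8 S100 genes that are not members were at or near 0. S100a2 and S100a3 were at 0 in all 18 mice, and S100a5, S100a7a and S100z were seen in 1 mouse each with at most 5 fragments. S100b reached 6 fragments and S100a14 11, both in SZ-A5. S100g, the calbindin-D9k of intestine, was above 0 in 15 mice, at up to 1.47 FPKM in HFD mice and at 5.96 FPKM (50 fragments) in SZ-A5, where the other 5 SZ-A mice were at 0.630 or below.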

How the data were processed

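Livers of 18 mice were measured by poly-A RNA-seq (150-base paired reads, Illumina NovaSeq). The authors aligned reads to GRCm38 with HISAT2 2.0.5, and featureCounts 1.5.0-p3 is named in the submitters' processing notes. The authors deposited 1 table of FPKM values, with gene length and position, and its comparison by DESeq2 was not repeated here. The library kit named does not mark strand. FPKM times gene length gave whole fragments, within 0.05, for 100% of values above 0, which is where depth and fragment numbers come from. Counting error is part of the spread between mice.

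Groups and replicate numbers came from the sample titles. Genes with a mean of at least 1 FPKM over 18 mice were tested as log2(FPKM + 0.1) with limma 3.58.1 (R 4.3.3, trend in eBayes), each pair of groups by itself. Fold changes on this scale understate the change of low genes. Calls needed an adjusted p below 0.05 and a fold of more than 1.2, as in the study's methods. S100a4 was tested by exact permutation. Whether the mice of a group shared cages is not given in the sources used here. No pair of libraries within a group agreed within sampling noise. Scripts were tested on simulated data.

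The members, the gene lists and the tests were chosen with earlier results of these data known. Genes named are the members, the other S100 genes, the 3 genes with the highest r to each member, and up to 3 genes per list with the smallest p in HFD against NC. Further called list genes are named after their values were seen, and some list results are not reported here. Alternatives were pseudocounts of 1 and 0.01, no filter and a filter of 5 FPKM, other scalings, all 18 mice in 1 fit, other variance models, a replicate block, voom, and each mouse left out. The upstream sequences are from RefSeq (GRCm38.p6), which held 8 of the 9 members. S100a10 had no entry.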

Additional observations from a re-analysis of the deposited data

Results flagged for a closer look

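Dixon's test at the 95% level was applied to the 26 groups of 6 mice with spread, and 5 values passed it. The test was run on FPKM and not on the log scale. Chance alone passes about 1 in 20 such groups if values follow a normal distribution. This was not shown for FPKM, so the count of 5 cannot be set against that rate. S100a6 stood out in SZ-A5 at 4.85 FPKM, with the other 5 SZ-A mice at 0.607 to 1.77. S100a8 stood out in the same mouse at 6.1 FPKM, with the others at 1.11 to 2.78. S100a4 was also apart in SZ-A5, at 0.490 FPKM (5 fragments), and in HFD4, at 0.431 FPKM (5 fragments). The other SZ-A mice lay at 0 to 0.0944 FPKM and the other HFD mice at 0 to 0.0813, so these flags rest on values at the floor. S100a9 stood out in NC1 at 3.59 FPKM, with the other NC mice at 0.189 to 1.3. In SZ-A5 the summed neutrophil list was 110.8 FPKM and the summed monocyte and macrophage list 149.9 FPKM, both the highest of the SZ-A group. Lcn2, which hepatocytes also express, made up 101.3 FPKM of the neutrophil sum. Ltf, another gene of that list, was at 4.81 FPKM (290 fragments) in SZ-A5. Without Lcn2 and Ltf the neutrophil sum of SZ-A5 was 4.76 FPKM, with an SZ-A median of 2.67, a choice made after the values were seen. The part of these in the values was not tested.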

How the results depend on the processing

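The rise of S100a8 and S100a9 in HFD against NC mice was called under all 22 alternatives that tested them, and that of S100a11 under 22 of 23. Members called there numbered 3, and 1 with a filter of 5 FPKM, which S100a8 and S100a9 fail. They numbered 2 without a filter, and 4 after the rescaling, with sample weights and without HFD5. The added member was S100a6 with sample weights and without HFD5. The genes called were 2062, and 1271 with that filter. In SZ-A against NC mice 2 members were called, 0 without a filter and 0 at 5 FPKM, and 1 to 2 with a mouse left out. The 981 genes called there became 564 without a filter, 1682 with sample weights and 601 to 1179 with a mouse left out. In SZ-A against HFD mice no member was called under any alternative. The 15 genes called there became 0 without a filter, 26 at 5 FPKM, 216 rescaled to a common sum, 35 with all 18 mice in 1 fit, 233 with sample weights, 32 by voom and 2 to 49 with a mouse left out. Mice with the same replicate number did not pair (correlation of deviations -0.12 to 0.29), and a replicate block gave 0 genes in SZ-A against HFD mice and changed no member's call.

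Signs turned for values that had not passed the test, and the cause was not tested. In SZ-A against HFD mice the rescaling gave log2 fold changes of -0.1488 for S100a1, -0.1465 for S100a13 and -0.1716 for S100a16, and S100a16 was at -0.01708 by median-ratio scaling and -0.01625 by voom. With a mouse left out S100a1 ranged from -0.007789 to 0.07787 there, S100a13 from -0.04483 to 0.123, S100a16 from -0.04003 to 0.06402 and S100a4 from -0.3158 to 0.3932. In SZ-A against NC mice S100a10 ranged from -0.2123 to 0.03018, S100a11 from -0.001709 to 0.476 and S100a13 from -0.03658 to 0.1528, and in HFD against NC mice S100a13 ranged from -0.06772 to 0.1217. Rescaled correlations turned to 0.044 for S100a9 and S100a16, 0.046 for S100a11 and S100a13, and 0.131 for S100a11 and S100a16. S100a4, S100a6, S100a8 and S100a9 rest on few fragments, which limits their precision. List counts without NC6, HFD5 or SZ-A5 and under other scalings were chosen after seeing the data.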
